A study of Homo sapiens with 23 samples.

Results

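The 37 genes described here encode the motors, filament-binding proteins, kinases and cytokinesis regulators that build the mitotic spindle, duplicate and separate the centrosomes and cut the daughter cells apart. They were taken as a listed set, and all 37 were found among the 61806 genes of the first count table and the 42901 genes of the second. They were sorted here into 4 groups by role. These were 12 spindle motors, 11 spindle assembly and microtubule-binding proteins, 6 mitotic kinases and centriole duplication factors, and 8 regulators of cytokinesis. The last group also took in DEPDC1 and DEPDC1B, whose part in cytokinesis was not examined here. Gene expression was measured by RNA-seq of A549, an established human lung adenocarcinoma cell line. THUMPD3, a tRNA guanosine methyltransferase, was depleted with an siRNA (siD3 #3, against siControl) or with either of 2 doxycycline-inducible shRNAs (shD3 #1 against sh1Control, shD3 #4 against sh4Control). The first 17 libraries held 3 of each group, except that 2 siControl libraries were analysed here. A further 6 libraries, called deep below, held shD3 #1 and sh1Control, with 3 of each. Whether they came from the same cultures as the first libraries of these groups is not given in the sources used here. All controls are labelled wild type, and the methods call them untreated. Whether the shRNA controls carried an uninduced construct is not given in the sources used here. The shRNA cells were puromycin-selected populations of transduced cells, and siRNA and shRNA cells were harvested on different days.

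Spindle microtubules are organised by kinesins that push the poles apart, slide and bundle filaments or carry chromosomes, and by proteins that nucleate and stabilise filaments at the poles and kinetochore fibres. Aurora A and Polo-like kinases license centrosome maturation, and centrioles are duplicated before each division. After anaphase, centralspindlin and the exchange factor ECT2 start furrowing at the equator, where anillin and citron kinase shape the ring and CEP55 recruits the abscission machinery. Transcripts of most of these genes rise late in the cell cycle, and cell cycle homology region (CHR) elements and CCAAT boxes, which NF-Y binds, are known features of promoters with that timing.

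To show what the promoters of these genes share, short motifs were searched for on both strands in windows of 300 bases, from 250 before to 50 after the start site (RefSeq sequences, GRCh38.p14). Such windows were held for 33 of the 37 genes, and several windows for 3 of them. The windows of TPX2, AURKA, NEK7 and RACGAP1 were not used here. A CHR element (TTTGAA or TTCGAA) lay in a window of 26 of the 33 genes (78.8%), against 19.5% of 27305 genes of all kinds and 17.5% of 15843 protein-coding genes. A CCAAT box was also found in 26 of the 33 (78.8%), against 39.7% of all genes and 42.1% of protein-coding genes. Both lay in the same window in 22 of the 33 (66.7%), against 7.85% of all genes and 7.28% of protein-coding genes. An E2F element (TTTGGCGC or TTTCGCGC) was found only in KIF15 and NUSAP1 (6.06% of 33, against 1.40% of all genes). Matches of different motifs may adjoin, as they do in KIF15, or share end letters. Of 38 CHR matches in these windows, 23 lay wholly between 60 bases before and 20 bases after the start site, with the median centre at -24 bases. The CCAAT matches lay further upstream, with the median centre at -64.5 bases. These are matches of letters, and no binding was measured.

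The windows below run from 130 bases before to 20 bases after the start site, 5′ to 3′ on the gene's strand, in lower case with the matches in capitals. They are shown for the genes that carry the results below: DEPDC1 and ANLN, which were lower in every comparison, DLGAP5, KIF15 and KIF4A, with the lowest values or largest differences, CEP55, called lower in some comparisons and not in others, and NEK2. CKAP5 is shown because it fell little in siD3 #3.
DEPDC1 (chr1:68497063-68497212, minus strand): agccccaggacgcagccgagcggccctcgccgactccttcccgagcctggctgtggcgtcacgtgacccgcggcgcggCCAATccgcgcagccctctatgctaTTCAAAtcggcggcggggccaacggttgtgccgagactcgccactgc
ANLN (chr7:36389732-36389881, plus strand): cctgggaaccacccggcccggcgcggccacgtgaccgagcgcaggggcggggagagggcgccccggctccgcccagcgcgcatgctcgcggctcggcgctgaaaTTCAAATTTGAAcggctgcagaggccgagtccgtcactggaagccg
DLGAP5 (chr14:55191566-55191715, minus strand): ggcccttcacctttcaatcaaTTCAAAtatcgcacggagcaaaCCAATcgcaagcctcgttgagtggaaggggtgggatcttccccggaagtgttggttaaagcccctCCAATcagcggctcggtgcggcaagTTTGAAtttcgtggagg
KIF15 (chr3:44761664-44761813, plus strand): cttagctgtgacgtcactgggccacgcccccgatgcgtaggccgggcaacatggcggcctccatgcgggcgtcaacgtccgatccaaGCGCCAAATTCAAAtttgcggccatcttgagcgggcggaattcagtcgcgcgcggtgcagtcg
KIF4A (chrX:70289974-70290123, plus strand): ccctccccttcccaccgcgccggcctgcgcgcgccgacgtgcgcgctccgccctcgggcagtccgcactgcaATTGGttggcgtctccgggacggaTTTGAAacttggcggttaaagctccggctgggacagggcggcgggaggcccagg
CEP55 (chr10:93496482-93496631, plus strand): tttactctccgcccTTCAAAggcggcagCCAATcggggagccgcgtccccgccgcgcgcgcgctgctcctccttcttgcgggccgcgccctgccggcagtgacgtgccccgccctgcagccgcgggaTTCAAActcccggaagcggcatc
NEK2 (chr1:211675602-211675751, minus strand): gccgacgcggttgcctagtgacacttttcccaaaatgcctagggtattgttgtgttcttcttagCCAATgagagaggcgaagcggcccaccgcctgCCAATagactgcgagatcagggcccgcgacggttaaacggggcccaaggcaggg
CKAP5 (chr11:46846261-46846410, minus strand): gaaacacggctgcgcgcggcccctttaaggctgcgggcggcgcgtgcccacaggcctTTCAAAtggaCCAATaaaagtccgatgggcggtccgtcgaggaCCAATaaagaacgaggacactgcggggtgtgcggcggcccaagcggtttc
In these stretches DEPDC1 and KIF4A held a CCAAT box upstream of a CHR element, ANLN held a pair of adjoining CHR matches and no CCAAT box, and NEK2 held 2 CCAAT boxes and no CHR match. CKAP5, with the smallest fall in siD3 #3, held both kinds of match as well.

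**Figure D1:**
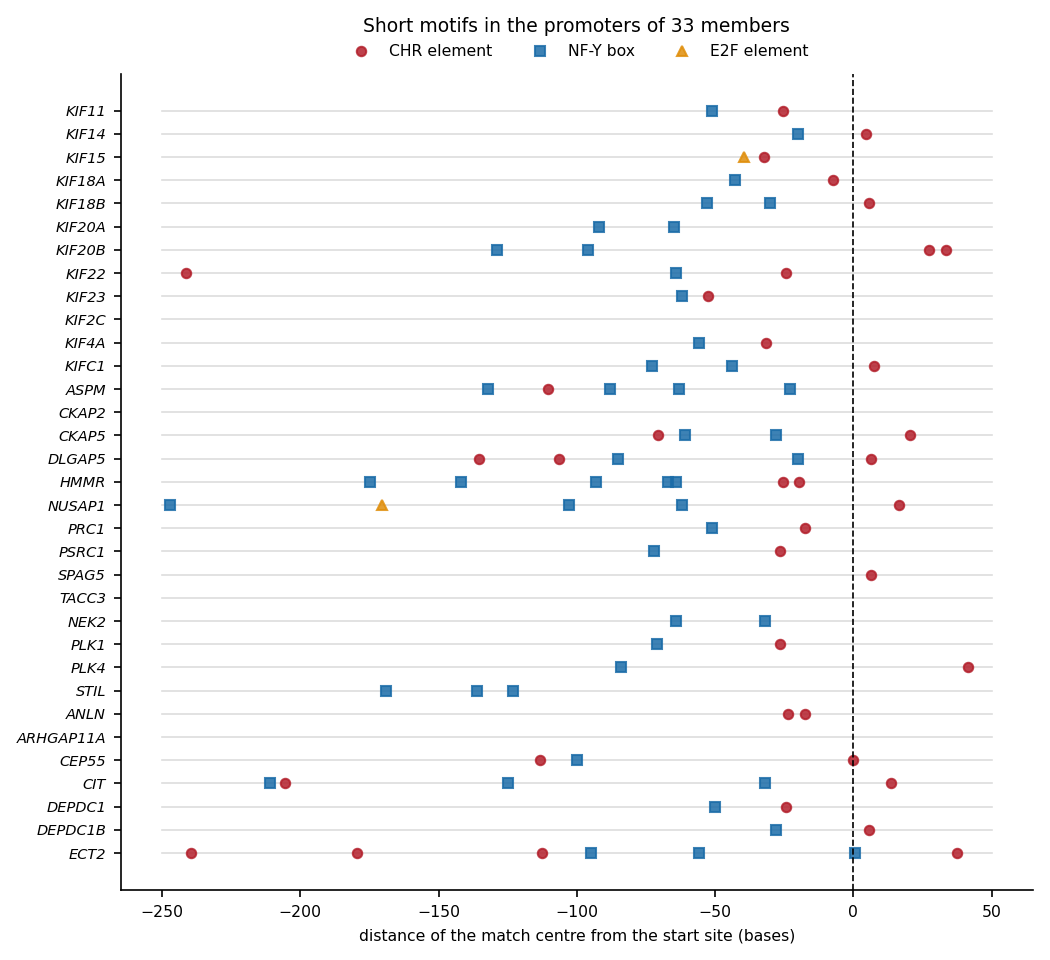
Positions of CHR, CCAAT (NF-Y box) and E2F matches in the promoter windows of 33 genes, as the distance in bases of each match centre from the start site (dashed line), with several windows of a gene drawn on 1 line. CHR matches gather close to the start site, and CCAAT boxes lie mostly upstream of them.

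Totals ranged from 9854294 to 22101059 counts in the first libraries and from 27285889 to 59974740 in the deep libraries. Levels below are TMM-normalised read counts scaled to library size (cpm), and log2 fold changes, with their standard errors (SE), come from edgeR's quasi-likelihood test over all genes of a table. To be called lower or higher, a gene had to change by at least about 1.5-fold and its p-value, adjusted by the method of Benjamini and Hochberg, had to lie below 0.05. Replicates are labelled as biological replicates. All 10 markers of A549-type carcinoma cells were at 1 cpm or more in every library, and of 16 markers of blood, endothelial, fibroblast, and differentiated alveolar and airway cells, 11 were under 1 cpm in every first library and 12 in every deep one. The others reached at most 8.68 (COL1A1), 5.61 (LUM), 3.05 (FOXJ1), 1.10 (CDH5) and 1.04 cpm (PDGFRA) in the first libraries. In the deep libraries CD68 was at 45.0 to 98.0 cpm, and COL1A1, LUM and CDH5 reached 28.3, 1.76 and 1.03 cpm. In siD3 #3, replicate 3 stood apart from the other two: its counts differed from theirs by a chi-square of 30.4 and 34.6 per gene, where they differed from each other by 3.76 and the other pairs of one group by 1.82 to 16.4. Without it, 36 genes were still called lower in siD3 #3 and 1 higher, against siControl.

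THUMPD3 itself checked the labels. Its levels were 59.6 to 62.5 cpm in sh1Control and 30.5 to 32.9 in shD3 #1 (log2 fold change -0.97, SE 0.07). They were 58.6 to 66.0 cpm in sh4Control and 19.2 to 20.2 in shD3 #4 (log2 fold change -1.67, SE 0.07). In the siRNA experiment they were 65.7 and 68.5 cpm in siControl and 10.5 to 12.4 in siD3 #3 (log2 fold change -2.54, SE 0.10), and in the deep libraries 53.0 to 55.9 and 24.9 to 28.3 cpm (log2 fold change -1.01, SE 0.06). Knockdown and control libraries did not overlap in any comparison. A two-sided exact permutation test returned p = 0.1 with 3 against 3 libraries and p = 0.2 with 3 against 2. Each was the smallest value that the form of the test used here can return with that many libraries.

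Most of the set was lower in siD3 #3 and shD3 #1, and 12 genes were called lower in shD3 #4. The set was chosen with earlier results of these data known, so the shares over all genes describe it and do not test it. In siD3 #3, 36 of the 37 genes were called lower and 1, NEK7, higher, where 9.42% and 12.5% of the 17032 genes tested were called lower and higher. In shD3 #1, 33 were lower, 1 was higher and 3 were not called, against 14.6% and 14.5% of 16456 genes. In shD3 #4 all 12 calls were of lower genes, where 4.49% of 16493 genes were called lower and 12.5% in either direction. That count depended on the settings: 19 genes were called lower when scaled by library size alone, and 3 when the test itself required the size of change (glmTreat). All 37 had a negative log2 fold change in shD3 #4. The median log2 fold change of the 37 was -3.18 in siD3 #3, -1.02 in shD3 #1 and -0.54 in shD3 #4, while the median over all genes tested lay between -0.01 and 0.03. The median level was thus 10.97% of control in siD3 #3, 48.6% in shD3 #1 and 68.9% in shD3 #4.

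In shD3 #4 most differences were smaller than a call required. By the adjusted p-value alone, 35 of the 37 were lower in shD3 #4, where 20.8% of all genes were, so that 23 genes passed on p but not on size. The same count was 35 in shD3 #1 (27.8% of all genes) and 36 in siD3 #3 (16.4%). Every knockdown library lay below every control library for 36 genes in shD3 #1 (31.2% of all genes did so), 35 in shD3 #4 (24.7%) and 36 in siD3 #3 (29.5%). These RNAs come from whole cultures, in which fewer dividing cells and less RNA per dividing cell cannot be told apart.

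**Figure D2:**
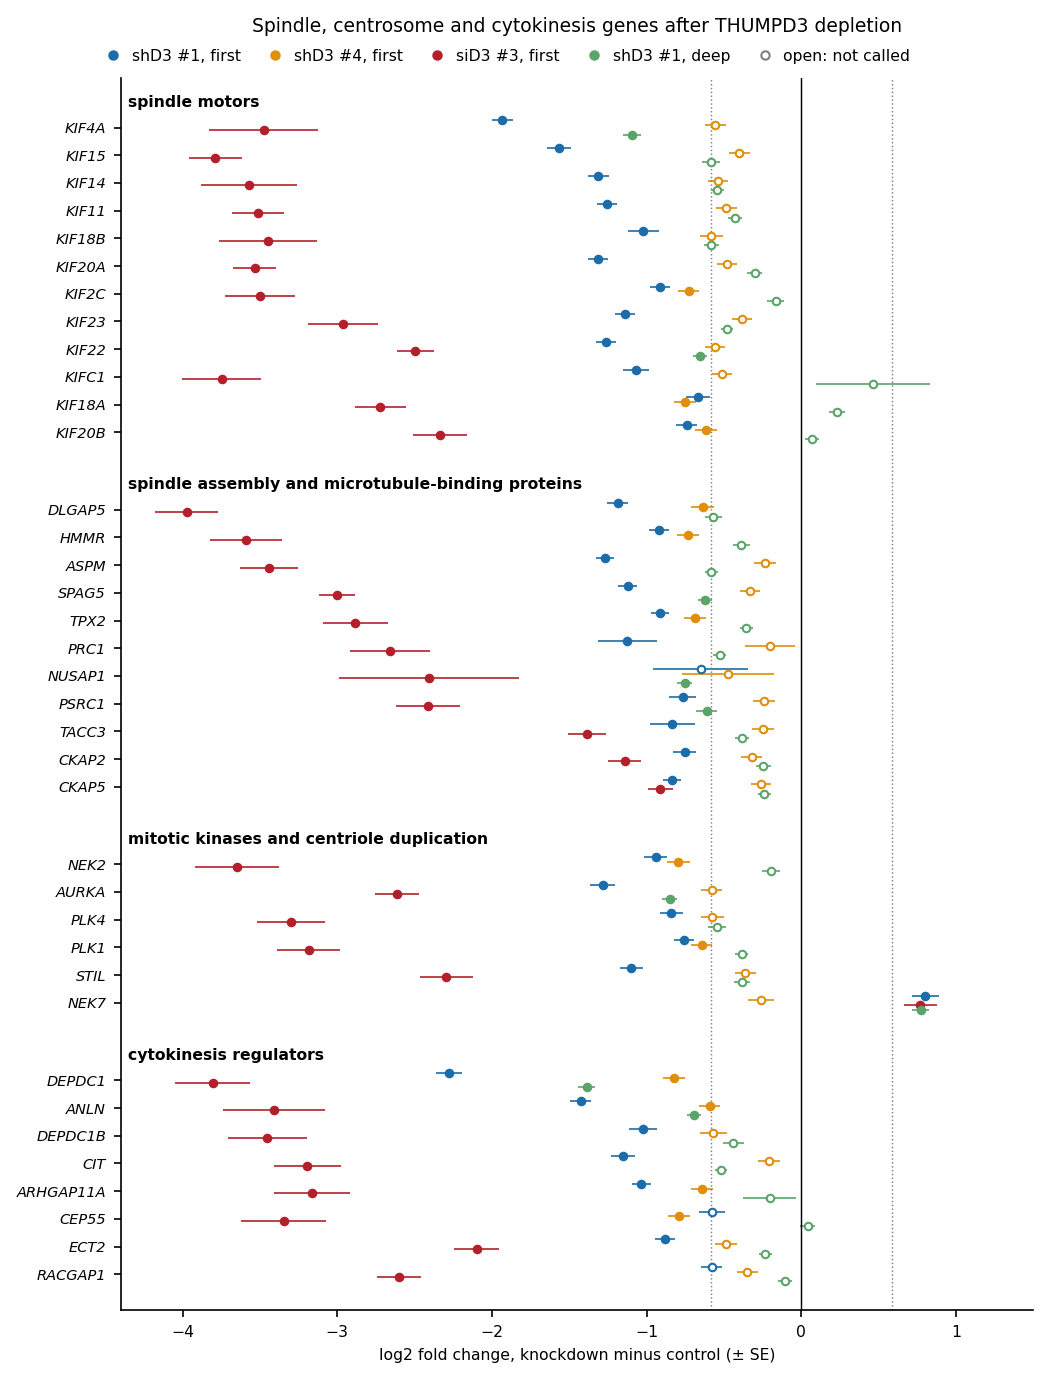
Log2 fold change (knockdown minus control, ± SE) of the 37 genes by role in the 4 comparisons, with filled points for called genes, open points for genes not called and dotted lines at the size needed for a call. The siD3 #3 points lie furthest to the left, at a median of -3.18, and NEK7 is the gene beyond the dotted line on the right.

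Summed over the 37 genes, expression was 4255 to 4461 cpm in sh1Control and 2076 to 2232 cpm in shD3 #1. It was 4301 to 4458 cpm in sh4Control and 2903 to 3287 cpm in shD3 #4, and 3900 and 3916 cpm in siControl. The siD3 #3 libraries had 616, 627 and 833 cpm, and the highest of these was replicate 3. Relative to the mean of its own controls, the median gene was at a log2 ratio of -3.42 and -3.53 in the first 2 siD3 #3 libraries and at -2.75 in replicate 3. Without replicate 3 the median log2 fold change was -3.51, the largest fall over the 5 fits that left out a library of that comparison.

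**Figure D3:**
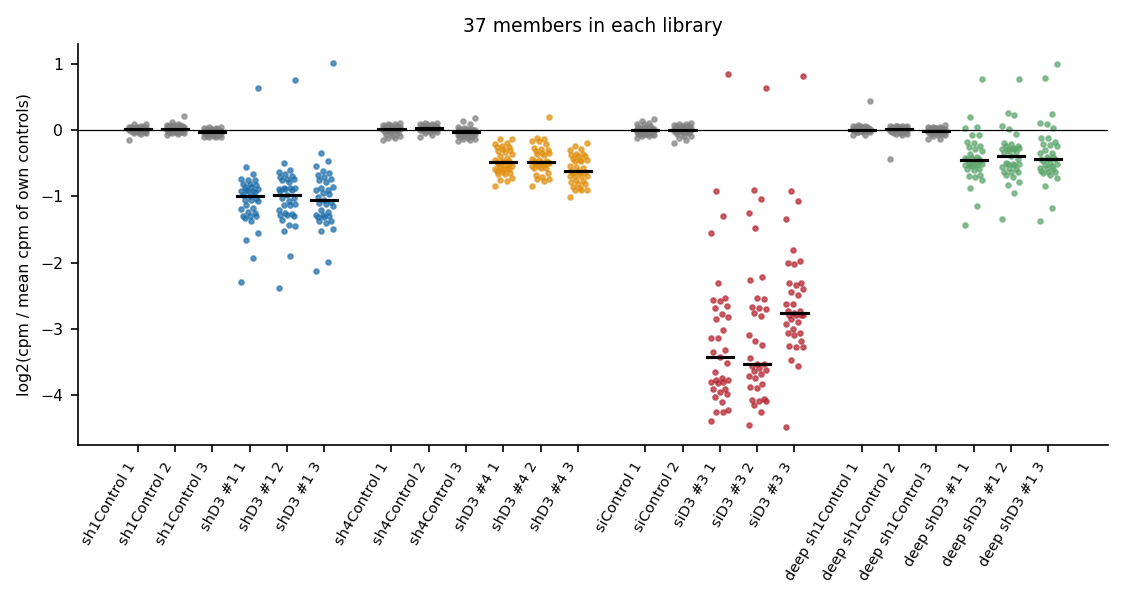
Log2 ratio of the cpm of each of the 37 genes (points) to the mean cpm of its own controls in every library, with the median as a bar. All siD3 #3 medians lie below -2.7, and replicate 3 of siD3 #3 sits above the other two.

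Among the 12 spindle motors, all 12 were lower in shD3 #1 and in siD3 #3, and 3 were in shD3 #4 (KIF18A, KIF20B and KIF2C). KIF4A, a chromokinesin that works with PRC1 at the spindle midzone, had the lowest value of the motors in shD3 #1. It was at 98.0, 93.0 and 93.3 cpm in sh1Control and at 24.9, 25.5 and 23.8 cpm in shD3 #1 (log2 fold change -1.93, SE 0.07, edgeR adjusted p = 4.93e-12). The shD3 #1 libraries lay close together and far below their controls. In shD3 #4 it was at 70.4, 69.4 and 60.9 cpm against 100.1, 98.8 and 96.2 (log2 fold change -0.55), and in siD3 #3 at 4.25, 3.43 and 9.86 cpm against 62.9 and 68.1 (log2 fold change -3.48). Some reads may not tell KIF4A from KIF4B, a near-identical copy.

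KIF15, which helps to keep the poles apart, fell furthest of the motors after siRNA. Its levels were 36.4 and 37.4 cpm in siControl and 2.45, 2.17 and 3.34 cpm in siD3 #3 (log2 fold change -3.79, SE 0.17, edgeR adjusted p = 8.38e-06). The corresponding values were 40.6, 44.4 and 41.3 against 13.3, 14.6 and 14.9 cpm in shD3 #1, and 41.6, 42.9 and 41.0 against 30.4, 34.2 and 30.6 cpm in shD3 #4. The groups did not overlap in any of the 3. KIF11, the main plus-end motor that separates the poles, followed the same order, at 42.0% of control in shD3 #1, 71.4% in shD3 #4 and 8.76% in siD3 #3.

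KIF18A, which dampens chromosome movements at the spindle equator, was the motor with the lowest value in shD3 #4 and the highest in shD3 #1. It was at 81.0, 81.2 and 78.4 cpm in sh4Control and at 52.0, 46.8 and 43.9 cpm in shD3 #4 (log2 fold change -0.75, SE 0.07). In shD3 #1 it was at 48.2, 50.1 and 56.2 cpm against 82.3, 86.9 and 75.4 in its controls (log2 fold change -0.67, SE 0.08). The difference between these 2 effects was 0.08 (SE 0.14) and was not called, and in siD3 #3 it was at 8.63, 9.94 and 13.1 cpm against 66.3 and 73.2.

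KIF23, a subunit of centralspindlin, changed least of the motors in shD3 #4, at 172, 168 and 156 cpm against 223, 219 and 205 (log2 fold change -0.38, SE 0.06, edgeR adjusted p = 3.06e-05). KIF20B, a late-division kinesin, changed least in siD3 #3, at 17.8, 18.5 and 27.1 cpm against 103 and 110.4 (log2 fold change -2.34, SE 0.17). KIF20A, which carries the chromosomal passenger complex to the midzone, was at 40.2% of control in shD3 #1, 71.8% in shD3 #4 and 8.62% in siD3 #3. The depolymerase KIF2C was at 53.0%, 60.2% and 8.82%, and the pole-focusing minus-end motor KIFC1 at 47.1%, 70.2% and 7.37%.

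Of the 11 spindle assembly and microtubule-binding proteins, 10 were lower in shD3 #1, 3 in shD3 #4 (TPX2, HMMR and DLGAP5) and 11 in siD3 #3. DLGAP5, which stabilises kinetochore fibres, had the lowest log2 fold change of all 37 genes in siD3 #3. It was at 99.4 and 113 cpm in siControl and at 5.05, 6.22 and 8.96 cpm in siD3 #3 (log2 fold change -3.97, SE 0.20, edgeR adjusted p = 1.29e-05), or 6.36% of control. It was at 113, 117 and 107 against 49.6, 46.9 and 51.7 cpm in shD3 #1, and at 125, 123 and 113 against 80.4, 83.3 and 68.3 cpm in shD3 #4. No library of a knockdown overlapped its controls.

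ASPM, which acts at the spindle poles, fell furthest of this group in shD3 #1, at 155, 158 and 160.5 cpm against 392, 394 and 354 (log2 fold change -1.27, SE 0.06). In shD3 #4 it was at 306, 322 and 267 cpm against 340.1, 352 and 359.8 (log2 fold change -0.24, SE 0.07), which was not called. HMMR, a spindle assembly factor also known as a hyaluronan receptor, fell furthest of the group in shD3 #4, at 71.3, 69.6 and 59.4 cpm against 112, 118 and 103 (log2 fold change -0.73, SE 0.07). TPX2, which nucleates spindle microtubules and activates Aurora A, was at 53.2% of control in shD3 #1, 62.1% in shD3 #4 and 13.5% in siD3 #3.

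Not all of the group moved so far after siRNA. CKAP5, a microtubule polymerase, was at 335 and 327 cpm in siControl and at 176, 177 and 176 cpm in siD3 #3 (log2 fold change -0.91, SE 0.08, edgeR adjusted p = 0.000179). It was at 208, 211 and 231 cpm in shD3 #1 against 393, 385 and 381 (log2 fold change -0.84, SE 0.06). CKAP2 and TACC3, which also bind spindle microtubules, had log2 fold changes of -1.14 and -1.39 in siD3 #3. These 3 genes had the smallest falls of the 36 in siD3 #3, and the next smallest was that of ECT2, at -2.10.

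PRC1, which bundles midzone filaments, and NUSAP1, which stabilises them near chromosomes, had few counts in the first libraries. PRC1 had 11 to 107 counts a library and NUSAP1 1 to 23, where the deep libraries had 2833 to 9112 and 1531 to 5754. In the GENCODE 44 annotation, 57.6% of the exon bases of PRC1 are shared with another gene on the same strand. For NUSAP1, overlaps with its same-strand genes, each taken separately, added up to 86.8% of its exon bases. A base shared with several of them may enter that sum more than once. With these counts PRC1 was called lower in shD3 #1 (log2 fold change -1.12, SE 0.19) and siD3 #3 (-2.66, SE 0.26). In shD3 #4 it was at 3.40, 5.45 and 3.61 cpm against 4.36, 5.10 and 4.73 (log2 fold change -0.20, SE 0.16), and the groups overlapped. NUSAP1 was at 0.536, 0.692 and 0.611 cpm in shD3 #1 against 0.986, 0.928 and 1.01 (log2 fold change -0.65, SE 0.31, edgeR adjusted p = 0.0858), which was not called although the groups did not overlap. Of the first libraries, NUSAP1 was called only in siD3 #3 (log2 fold change -2.41, SE 0.58, edgeR adjusted p = 0.0162), and that call was lost without siControl replicate 1 (log2 fold change -2.20, edgeR adjusted p = 0.130) or without siControl replicate 2 (-2.58, edgeR adjusted p = 0.0671).

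Of the 6 kinases and centriole factors, 5 were lower in shD3 #1 and siD3 #3, and NEK2 and PLK1 were in shD3 #4. NEK2, which splits the centrosome linker, fell furthest of the group after siRNA and in shD3 #4. It was at 46.5 and 50.6 cpm in siControl and at 2.55, 3.25 and 5.78 cpm in siD3 #3 (log2 fold change -3.65, SE 0.27, edgeR adjusted p = 6.99e-05). It was at 60.7, 55.3 and 53.0 against 33.4, 33.8 and 30.1 cpm in shD3 #4, and at 51.4, 55.0 and 53.9 against 26.98, 26.1 and 31.1 cpm in shD3 #1. The 2 shRNA groups thus reached similar levels.

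AURKA (Aurora A), which matures centrosomes, fell furthest of the group in shD3 #1, at 43.4, 39.2 and 49.99 cpm against 107, 104 and 109 (log2 fold change -1.28, SE 0.08). In shD3 #4 it was at 79.4, 80.3 and 71.0 cpm against 117, 119 and 108, a log2 fold change of -0.58 that lay just under the size needed for a call. PLK1, a master mitotic kinase, was at 59.3%, 64.1% and 10.97% of control in shD3 #1, shD3 #4 and siD3 #3. PLK4, the kinase that starts centriole duplication, was at 55.7%, 67.2% and 10.1%, and its substrate STIL at 47.0%, 77.7% and 20.4%.

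NEK7, a NIMA-related kinase of the centrosome that is also known as a partner of the NLRP3 inflammasome, was the gene that rose. It was at 31.1, 30.7 and 29.4 cpm in sh1Control and at 47.3, 51.4 and 61.5 cpm in shD3 #1 (log2 fold change 0.80, SE 0.09, edgeR adjusted p = 9.79e-07). In siD3 #3 it was at 52.6, 45.2 and 51.2 cpm against 27.8 and 30.4 in siControl (log2 fold change 0.77, SE 0.11, edgeR adjusted p = 0.00138). Neither pair of groups overlapped. In shD3 #4 it was at 31.4, 25.1 and 30.4 cpm against 37.1, 36.1 and 31.0 (log2 fold change -0.26, SE 0.08), the libraries overlapped and it was not called. In the deep libraries it was again higher, at 43.6, 43.5 and 44.4 cpm against 24.5, 25.4 and 27.2 (log2 fold change 0.77, SE 0.05).

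Among the 8 regulators of cytokinesis, 6 were lower in shD3 #1, 4 in shD3 #4 and 8 in siD3 #3. DEPDC1, a DEP-domain protein sorted into this group here, had the lowest log2 fold change of the group in all 4 comparisons. It was at 75.7, 84.1 and 73.6 cpm in sh1Control and at 15.9, 14.8 and 17.7 cpm in shD3 #1 (log2 fold change -2.28, SE 0.08, edgeR adjusted p = 6.57e-12), the largest fall of the 37 there. It was at 85.7, 83.5 and 79.6 against 49.97, 49.7 and 41.0 cpm in shD3 #4 (log2 fold change -0.82, SE 0.07). In siD3 #3 it was at 4.34, 4.57 and 8.37 cpm against 78.1 and 83.4 (log2 fold change -3.81, SE 0.24). Control levels were alike in the 3 experiments, and the knockdown groups stood apart from each other.

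ANLN (anillin), which anchors the contractile ring, was the other gene lower in all 4 comparisons. It was at 347, 354 and 332 against 117, 127 and 141 cpm in shD3 #1 (log2 fold change -1.43, SE 0.07), and at 326 and 324 against 23.8, 19.6 and 48.2 cpm in siD3 #3 (log2 fold change -3.41, SE 0.33). In shD3 #4 it was at 349.6, 329.6 and 340.4 against 234, 232 and 209.5 cpm (log2 fold change -0.59, SE 0.07). That call was near the size threshold and was lost without sh4Control replicate 1 (log2 fold change -0.58) and without shD3 #4 replicate 3 (-0.54).

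CEP55, which recruits the abscission machinery to the midbody, was called lower in shD3 #4 and not in shD3 #1. It was at 131, 125 and 112 against 72.2, 74.9 and 65.5 cpm in shD3 #4 (log2 fold change -0.79, SE 0.07). In shD3 #1 it was at 113, 115 and 111 against 68.0, 71.4 and 89.2 cpm (log2 fold change -0.58, SE 0.08), and was called there once the highest library, shD3 #1 replicate 3, was left out (-0.70). The difference between the 2 shRNAs was 0.21 (SE 0.22, edgeR adjusted p = 0.470) and was not called. After siRNA it was at 8.26, 11.3 and 18.8 cpm against 131 and 129.9 (log2 fold change -3.35, SE 0.28).

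The remaining regulators followed. ECT2, the exchange factor that starts furrowing, changed least of the group in siD3 #3, at 62.5, 66.2 and 88.3 cpm against 311 and 308 (log2 fold change -2.10, SE 0.15). RACGAP1, the other subunit of centralspindlin, was at 67.1% of control in shD3 #1 (log2 fold change -0.58, SE 0.07, not called), 78.5% in shD3 #4 and 16.5% in siD3 #3. It was called in shD3 #1 without sh1Control replicate 2 (log2 fold change -0.62) and without shD3 #1 replicate 3 (-0.63). CIT (citron kinase) changed least of the group in shD3 #4, at 110.1, 111 and 94.5 cpm against 116, 119 and 129.8 (log2 fold change -0.21, SE 0.07). ARHGAP11A, a GTPase-activating protein, was at 48.9%, 64.0% and 11.1% of control, and some reads may not tell it from its copy ARHGAP11B.

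**Figure D4:**
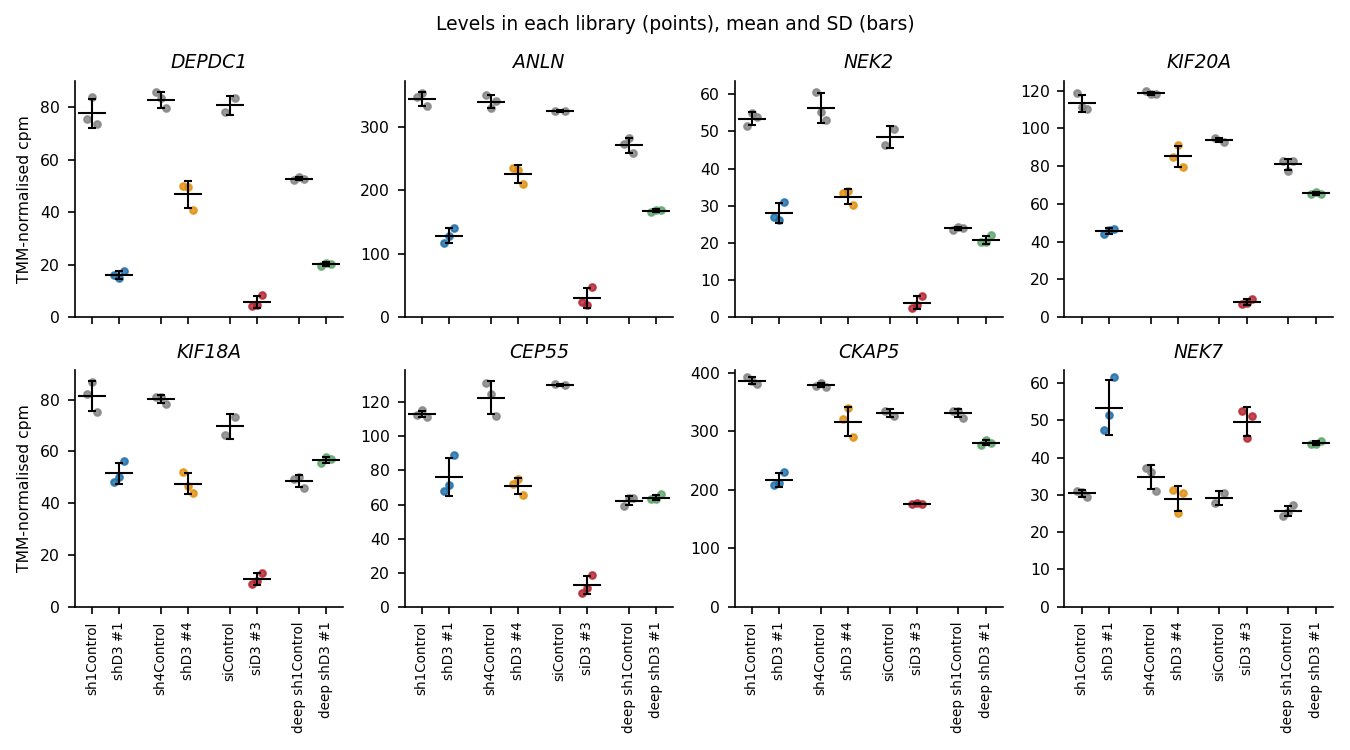
TMM-normalised cpm of 8 genes in every library (points, grey for controls), with the mean and SD as bars and axes from 0. DEPDC1 and ANLN fell in every comparison, KIF18A and CEP55 were not lower in the deep shD3 #1 libraries, and NEK7 rose except in shD3 #4.

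Per kilobase of canonical transcript, the sh4Control levels ran from 8.44 cpm per kb for NEK7 and 8.79 for KIF15 to 81.3 for ECT2 and 82.2 for TPX2, leaving aside the poorly counted PRC1 and NUSAP1. Across the 37 genes, the log2 fold changes in shD3 #1 and siD3 #3 had a Pearson correlation of 0.69, which was 0.46 without NEK7. Those in shD3 #4 and siD3 #3 had one of 0.52 (0.50 without NEK7), and those in the 2 shRNAs 0.21 (0.09 without NEK7). These describe genes, which are not independent, in experiments that had separate controls.

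Whether the knockdowns differed in size was tested in 1 model of the 17 first libraries. The siD3 #3 effect was more negative than that of shD3 #1 for 33 of the 37 genes, against 11.7% of 18672 genes tested, and more positive for none (13.6% of all genes). All 37 differences were negative, DESeq2 also called none more positive, and NEK7, TACC3, CKAP2 and CKAP5 were not called. The largest difference was that of DLGAP5, at -2.77 (SE 0.18, edgeR adjusted p = 5.36e-10), and the smallest that of NEK7, at -0.02 (SE 0.15, edgeR adjusted p = 0.948). CKAP5 differed by -0.06 (SE 0.10) on the log2 scale. Against shD3 #4, the siRNA effect was more negative for 36 genes (8.56% of all genes) and more positive for NEK7 (9.24%). KIF15 differed most, at -3.38 (SE 0.14, edgeR adjusted p = 8.03e-13), and NEK7 by 1.04 (SE 0.15, edgeR adjusted p = 2.28e-05).

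The 2 shRNAs also differed. The shD3 #1 effect was more negative than that of shD3 #4 for 16 genes (13.8% of all genes) and more positive for NEK7 (12.1%), and 20 were not called. DEPDC1 differed most, at -1.46 (SE 0.18, edgeR adjusted p = 2.75e-06), followed by KIF4A at -1.38 (SE 0.23) and KIF15 at -1.17 (SE 0.12). NEK7 differed by 1.06 (SE 0.14, edgeR adjusted p = 5.50e-06). THUMPD3 went the other way: its fall was the smaller in shD3 #1, by 0.70 (SE 0.10). By role, 7 of 12 motors, 4 of 11 assembly proteins, 2 of 6 kinases and 3 of 8 cytokinesis genes were more negative in shD3 #1. KIF18A (0.08, SE 0.14), PLK1 (-0.12, SE 0.15) and CEP55 (0.21, SE 0.22) were among those not called. The call of TACC3 was lost when each of 5 libraries was left out in turn, as given at the end.

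The deep libraries held shD3 #1 and sh1Control again, and fewer of the set were called there. Of the 37 genes, 8 were lower and 1, NEK7, higher, against 14.1% and 15.0% of 18763 genes tested. When each deep library was left out in turn, 9 to 10 were called lower. By the adjusted p-value alone 30 were lower, against 31.5% of all genes. Every knockdown library lay below every control for 31 genes (34.0% of all genes), and 3 genes overlapped. Another 3 lay above, for which the share over all genes was not counted here. The median log2 fold change was -0.43, or 74.4% of control, where it was -1.02 in the first libraries, and the summed expression was 3920 to 3979 cpm in the controls and 2924 to 2957 cpm in shD3 #1. The tables were counted separately and with different gene models, so their values stand side by side without a test.

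The genes lower in the deep libraries were DEPDC1, KIF4A, AURKA, NUSAP1, ANLN, KIF22, SPAG5 and PSRC1. DEPDC1 was at 52.4, 53.3 and 52.8 cpm in the controls and at 19.5, 20.7 and 20.3 cpm in shD3 #1 (log2 fold change -1.39, SE 0.05, edgeR adjusted p = 2.04e-11), the largest fall of the set. KIF4A was at 67.8, 66.9 and 69.6 against 30.8, 35.1 and 30.1 cpm (log2 fold change -1.09, SE 0.06), and AURKA at 79.2, 77.0 and 81.9 against 43.5, 44.5 and 44.1 cpm (log2 fold change -0.85, SE 0.05). NUSAP1, well counted here, was at 97.8, 92.6 and 100.5 against 57.6, 56.0 and 58.9 cpm (log2 fold change -0.75, SE 0.05). ANLN was at 272, 282 and 259 against 165, 169 and 169 cpm (log2 fold change -0.69, SE 0.04). In each of these the groups lay clear of each other. PSRC1 (log2 fold change -0.61) lost its call without deep shD3 #1 replicate 2 (-0.57).

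Several genes were close to control or above it in the deep shD3 #1 libraries. KIF18A was at 49.2, 50.3 and 45.8 cpm in the deep controls and at 55.5, 57.7 and 57.2 cpm in shD3 #1 (log2 fold change 0.23, SE 0.05, edgeR adjusted p = 0.00131), above its controls but under the size for a call. KIF20B was at 65.1, 66.1 and 63.0 against 66.9, 67.5 and 69.5 cpm (log2 fold change 0.07, SE 0.05), and CEP55 at 59.3, 63.8 and 63.6 against 63.3, 63.0 and 65.9 cpm (log2 fold change 0.04, SE 0.05). NEK2 was at 23.3, 24.2 and 24.0 against 20.2, 20.2 and 21.99 cpm (log2 fold change -0.20, SE 0.06). CKAP5 changed least of its group, at 277, 284 and 280.4 cpm against 334, 335 and 323 (log2 fold change -0.24, SE 0.04). For NEK2 and CKAP5 every knockdown library lay below every control (edgeR adjusted p = 0.00938 and 0.000110), by less than a call required.

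KIFC1 and ARHGAP11A were poorly counted in the deep table. KIFC1 had 30, 14 and 19 counts in the controls and 11, 12 and 27 in shD3 #1 (log2 fold change 0.46, SE 0.37, edgeR adjusted p = 0.292), where the first libraries had 34 to 1178. Its control level was 0.38 cpm, against 54.3 in the first sh1Control libraries. ARHGAP11A had 50 to 136 counts a library, against 122 to 2036, and a log2 fold change of -0.20 (SE 0.17). In GENCODE 44, 30.3% of its exon bases are shared with another gene on the same strand, while KIFC1 shares none in this way. The cause of these low counts was not tested.

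Of the 33 genes called lower in the first shD3 #1 libraries, 7 (21.2%) were called lower in the deep ones. Over all 2051 genes called lower in the first and tested in both, 1102 (53.7%) were. Several of the 33 lay just under the size needed for a call in the deep libraries while passing on the adjusted p-value. Their log2 fold changes there were -0.584 (KIF15), -0.581 (ASPM), -0.580 (KIF18B) and -0.568 (DLGAP5). The deep log2 fold change was above the first for 35 of the 37 genes, and the share over all genes was not counted here. The median of deep minus first was 0.62 over the 37 and 0.02 over 13785 genes tested in both. Over the 2051 genes called lower in the first, the median log2 fold change was -0.93 in the first and -0.63 in the deep libraries. The 37 include KIFC1 and ARHGAP11A, poorly counted in the deep libraries, and PRC1 and NUSAP1, poorly counted in the first. KIFC1 and ARHGAP11A were also among the 33. THUMPD3 had fallen to 51.3% and 49.6% of control.

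**Figure D5:**
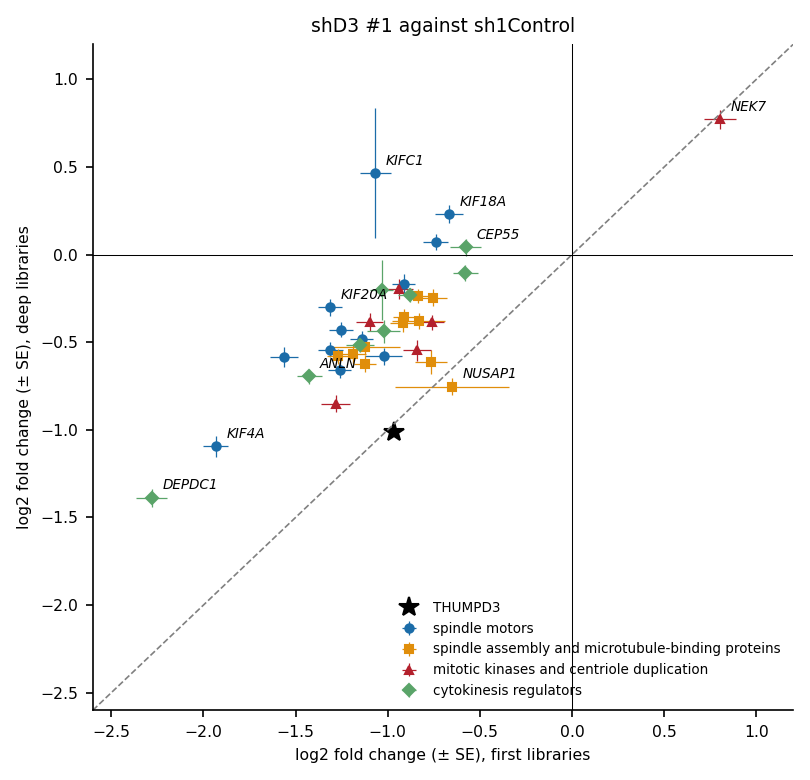
Log2 fold changes (± SE) of the 37 genes in shD3 #1 against sh1Control in the first (x axis) and the deep libraries (y axis), by role, with THUMPD3 as a star and equal values on the dashed line. THUMPD3 and NEK7 lie near the line, and 35 of the 37 genes lie above it.

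The 4 comparisons cover 3 knockdowns, since shD3 #1 stands in both the first and the deep libraries. Counted over the 4 comparisons, 2 genes were lower in all, 14 in 3, 19 in 2, RACGAP1 in 1 and NEK7 in none. Of the 13446 genes tested in all 4, joined by symbol, 0.431% were lower in all and 2.78% in 3. The shares of genes lower in fewer comparisons were not counted here. Over the first 3 alone, 11 were lower in each, against 0.805% of the 15656 genes tested in all 3: KIF18A, KIF20B, KIF2C, TPX2, HMMR, DLGAP5, PLK1, NEK2, ANLN, ARHGAP11A and DEPDC1. The sign of the log2 fold change differed between comparisons for 5 genes, NEK7, KIF18A, KIF20B, KIFC1 and CEP55, and for the last 4 the positive value was that of the deep libraries. Genes with a CHR match had a median log2 fold change of -3.32 in siD3 #3, and the 7 without one -3.17. In shD3 #1 the medians were -1.09 with and -0.94 without a match. They were -0.55 with and -0.48 without in shD3 #4, and -0.53 with and -0.25 without in the deep libraries. These medians are descriptions over 33 genes, and the ranges overlapped in each comparison.

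Genes that work beside these 37 were followed in 11 lists of 204 genes. Counts below are in the order shD3 #1, shD3 #4, siD3 #3 and deep libraries, where 14.6%, 4.49%, 9.42% and 14.1% of all genes tested were called lower. Those called higher were 14.5% in shD3 #1, 12.5% in siD3 #3 and 15.0% in the deep libraries, and in shD3 #4 12.5% were called in either direction. The chromosomal passenger complex (4 genes), which corrects attachments and moves to the midzone, was lower in all of its members in shD3 #1 and siD3 #3, in 1 in shD3 #4 and in 2 in the deep libraries. Its kinase AURKB had log2 fold changes of -1.56, -0.50, -3.70 and -1.03 in shD3 #1, shD3 #4, siD3 #3 and the deep libraries. The augmin complex, which branches microtubules within the spindle, had 2, 1, 8 and 2 of 8 genes lower and none higher. Of 29 genes of the centriole and the pericentriolar material, 14, 1, 15 and 3 were lower and none higher. CENPE, a kinetochore kinesin, was at -1.23, -0.56, -3.14 and -0.42.

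Of 28 interphase and transport kinesins, 27, 26, 27 and 27 were tested in the 4 comparisons. There 7, 3, 2 and 7 were lower and 3, 0, 4 and 5 higher, with medians of -0.11, 0.04, 0.14 and -0.03. Of 26 genes of dynein, dynactin and their regulators (25 tested in shD3 #4 and siD3 #3), 2, 1, 3 and 0 were lower and 6, 0, 1 and 7 higher. Among 30 genes of the actomyosin ring, septins and abscission (29 tested except in siD3 #3), 3, 1, 3 and 3 were lower and 1, 0, 2 and 3 higher, and DIAPH3, a formin, was at -1.57, -0.48, -3.52 and -0.61. Among 9 other NEK kinases (8 tested in shD3 #4 and siD3 #3), 1, 0, 0 and 3 were lower and 1, 0, 1 and 0 higher, with NEK10 at 0.73 in shD3 #1 and 1.10 in siD3 #3.

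Of 23 tubulins and genes of the gamma-tubulin ring (22 tested in the deep libraries), 4, 6, 11 and 1 were lower and 1, 0, 1 and 0 higher. Among 22 plus-end and stabilising proteins, 9, 2, 7 and 4 were lower and 3, 1, 2 and 3 higher. GTSE1 was at -1.62, -0.54, -3.68 and -0.79, and MAPRE3 (EB3), a plus-end tracker, at 1.42, 0.17, 1.45 and 1.44. Among 22 transcription factors and DREAM or MuvB subunits that act on mitotic genes, 9, 5, 11 and 3 were lower and 1, 0, 0 and 0 higher. FOXM1 was at -0.80, -0.75, -3.17 and -0.52, and MYBL2 at -1.34, -0.61, -3.28 and -0.83. The list of other mitotic kinesins and partners (3 genes) had 2, 0, 2 and 0 lower.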

How the data were processed

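The authors aligned reads of ribosomal RNA-depleted, directional libraries to GRCh38.p14 with STAR 2.7.10a after Trimmomatic 0.40 (submitters' processing notes) and deposited counts, in reads per gene, without normalisation. The paper names the NCBI RefSeq annotation, but the first table lists Ensembl identifiers and the second symbols. The strand setting used in counting is not given in the sources used here, and 18 of the 37 genes share exon bases with an antisense gene. No column was left out.

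The main test was the quasi-likelihood test of edgeR 4.0.16 under R 4.3.3, after TMM and filterByExpr, fitted over all genes for every knockdown and its controls. Effects were compared as interaction contrasts in 1 fit of the 17 first libraries. SE is the absolute log2 fold change divided by the square root of F. For THUMPD3 an exact permutation test was added.

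Members and lists were chosen with earlier results of these data known. Values per library are given for the lowest and highest member of each role in each comparison, genes called higher or lower in all 4, those whose sign differs, and the extremes of each difference. KIF20A, KIF11 and some others were named from the list of 37. The promoter motifs were chosen after the fold changes were seen.

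Gene models came from GENCODE 44 and promoters from RefSeq. The fit was tested on simulated data. Alternatives were DESeq2 1.42.0, its size factors, library size alone, other filters, other thresholds, the replicate block, 1 joint fit and each library left out. Motifs were counted with pandas 2.3.3 under python 3.11.15, and plots were drawn with matplotlib 3.10.9.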

Additional observations from a re-analysis of the deposited data

Results flagged for a closer look

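Differences in effect between knockdowns were tested as interaction contrasts over the first libraries with edgeR's quasi-likelihood test. The siD3 #3 effect was more negative than that of shD3 #1 for 33 of the 37 genes, with DLGAP5 at the extreme (log2 difference -2.77). It was more negative than that of shD3 #4 for 36 genes, with KIF15 at the extreme (log2 difference -3.38), and more positive for NEK7 (log2 difference 1.04). The shD3 #1 effect was more negative than that of shD3 #4 for 16 genes, with DEPDC1 at the extreme (log2 difference -1.46), and more positive for NEK7 (log2 difference 1.06). THUMPD3 was at 51.3%, 31.4% and 17.1% of control in shD3 #1, shD3 #4 and siD3 #3, so that the order of its levels was not that of the set. The siRNA and shRNA cells also differed in delivery and day of harvest, whose part in these differences cannot be told apart from that of the depletion.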

How the results depend on the processing

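Under DESeq2, its size factors in edgeR, library size alone, 2 other filters, the joint fit and the replicate block, 33 to 35 genes were lower in shD3 #1, 12 to 19 in shD3 #4, 35 or 36 in siD3 #3 and 6 to 12 in the deep libraries. Size thresholds mattered most. At a log2 fold change of 1, 20, 0 and 2 genes were lower in shD3 #1, shD3 #4 and the deep libraries, and 0 higher in shD3 #1, siD3 #3 and the deep libraries. With no size threshold, 35 were lower in shD3 #4, 30 were lower and 2 higher in the deep libraries. With glmTreat, 3 were lower in shD3 #4, 5 in the deep libraries and 0 higher in siD3 #3. Library size alone gave 19 lower in shD3 #4, and medians of -0.95 in shD3 #1 and -0.39 in the deep libraries. Leaving out each library in turn gave 33 to 35, 8 to 17, 35 to 36 and 9 to 10 genes lower, and 15 to 18 more negative in shD3 #1 than in shD3 #4. In shD3 #4, DLGAP5 (-0.56), ARHGAP11A (-0.58) and KIF20B (-0.53) lost their calls without shD3 #4 replicate 3, and KIF20B also without sh4Control replicate 2 (-0.58). TACC3, more negative in shD3 #1 than in shD3 #4, was at -0.38 without shD3 #1 replicate 3, -0.55 without sh1Control replicate 1, sh4Control replicate 1 or shD3 #4 replicate 2, and -0.58 without siD3 #3 replicate 3. NUSAP1 in siD3 #3 minus shD3 #1 was at -1.56, -1.30 and -1.62 without siControl replicate 1, siD3 #3 replicate 3 and shD3 #1 replicate 2, and in siD3 #3 minus shD3 #4 at -1.74 without siControl replicate 1, none of them called. The difference of NEK7 between siD3 #3 and shD3 #1 changed sign with at least 10 counts in every sample (0.0173) and ranged from -0.10 to 0.0865 without single libraries. With library size alone, KIF20B (0.0141) and PLK1 (0.0224) changed sign between the 2 shRNAs. In each of these the cause was not tested.

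No clear pairing of libraries by replicate number was seen. In 3 against 3, correlations of same-numbered deviations lay between -0.08 and 0.07. Some libraries correlated best with their own number and others did not. With 3 libraries in a group these correlations are tied to each other, so they cannot exclude pairing. With the replicate block, counts were 33, 12, 36 and 8 lower, as without it, 32 in place of 33 more negative in siD3 #3 than in shD3 #1, and 35 in place of 36 against shD3 #4, NUSAP1 being the gene lost in both.

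Counts limit PRC1 and NUSAP1 in the first libraries, and KIFC1 and ARHGAP11A in the deep ones.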

Other observations

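Some cytoskeletal genes outside the set rose while the set fell. TUBA1A, an alpha-tubulin, had a log2 fold change of 1.46 (SE 0.09) in siD3 #3, where TUBA1B, its abundant relative, was at -1.45 (SE 0.11). In shD3 #1 they were at 0.07 and -0.47 and in the deep libraries at 0.04 and -0.16, none of them called. In shD3 #4 they were at 0.43, not called, and at -0.75 (SE 0.07), called lower. Their coding sequences are similar, so that some reads may not tell them apart. DYNC1I1, an intermediate chain of dynein, was at 3.97 (SE 0.47) in shD3 #1 and at 3.34 (SE 0.52) in the deep libraries, and had too few counts to be tested in shD3 #4 and siD3 #3. KIF26B, an atypical kinesin, was at 3.37 (SE 0.39) in shD3 #1, 4.16 (SE 0.81) in siD3 #3 and 2.71 (SE 0.45) in the deep libraries, all called, and had too few counts to be tested in shD3 #4. KIF1A, a transport kinesin, was lower in shD3 #1 (-1.69, SE 0.29) and the deep libraries (-2.31, SE 0.28) and higher in siD3 #3 (1.38, SE 0.35), and was at -0.37 (SE 0.29) and not called in shD3 #4. CEP63, a centriole protein, was lower in shD3 #1 (-1.18, SE 0.13) and the deep libraries (-0.90, SE 0.07) and at 0.00 (SE 0.19) in siD3 #3 and -0.12 (SE 0.12) in shD3 #4, where it was not called. NEK3 was at -1.50, -1.03, -0.20 and -0.23 in the same order, and the last 2 were not called. These genes were picked from the lists after their values were seen, and their differences between knockdowns were not tested here.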
